A study of Mus musculus with 96 samples.

Results

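The pyruvate dehydrogenase complex and the citrate cycle were followed through 8 genes, Pdha1, Dlat, Cs, Idh3a, Ogdh, Sdha, Fh1 and Mdh2, which were taken by symbol from the deposited expression table, where they are 8 of the 20155 genes with values. Islets and liver came from the same 48 C57BL/6N male mice, bought at 4 weeks of age and kept on a chow diet (CD, LabDiet 5001, 13.5% fat) or a high-fat diet (HFD, Research Diets D12492, 60% fat). Tissue was taken after 4, 8, 12, 16, 20 or 24 weeks on the diet from 4 separate mice per diet, so each tissue had 48 libraries in 12 groups. Islets were released by collagenase, separated on a gradient and picked by hand, and 1 region of the liver was frozen. No group carried a transgene or a drug, and the diets differ in source and ingredients besides fat, so that the effect of fat cannot be told apart from that of the other ingredients.

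The pyruvate dehydrogenase complex turns pyruvate, the end product of glycolysis, into acetyl-CoA inside mitochondria. It is shut off by phosphorylation through the Pdk kinases and opened again by the Pdp phosphatases. The citrate cycle then oxidizes acetyl-CoA and feeds the respiratory chain. In the beta cells of islets this oxidation yields the ATP that triggers insulin secretion, and in liver the same mitochondrial intermediates also serve glucose and fat synthesis.

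Each enzyme occupies a different step. Pdha1, on chromosome X (160122219 to 160138430, minus strand, GRCm38, as the deposited table places it), encodes the E1 alpha subunit that carries the phosphorylation sites, and Dlat (chromosome 9, 50634633 to 50659780, minus strand) the E2 core that makes acetyl-CoA. Cs (chromosome 10, 128337832 to 128362479, plus strand) encodes citrate synthase, which joins acetyl-CoA to oxaloacetate. Idh3a (chromosome 9, 54586511 to 54604662, plus strand) encodes the catalytic subunit of NAD-dependent isocitrate dehydrogenase, and Ogdh (chromosome 11, 6291597 to 6359094, plus strand) the E1 subunit of the oxoglutarate dehydrogenase complex. Sdha (chromosome 13, 74322255 to 74350240, minus strand) is the flavoprotein of succinate dehydrogenase, which is also complex II. Fh1 (chromosome 1, 175601378 to 175625635, minus strand) and Mdh2 (chromosome 5, 135778649 to 135790386, plus strand) encode fumarase and mitochondrial malate dehydrogenase, the last steps before oxaloacetate. The testis paralog of Pdha1, Pdha2, and the citrate synthase-like gene Csl lay at 0.08 FPKM or less in every library.

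Promoters were looked up in RefSeq (GRCm38.p6), where 7 of the 8 genes had an entry of 250 bases before and 50 bases after the start, and Idh3a had none. The 3 genes that rose with HFD in liver at more than 1 week, described further on, are shown 5′ to 3′, with capitals for any match to 5 motifs searched on both strands: TCAAGGTCA (estrogen-related receptor, ERR), CGCATGCG (NRF1 core), AAGATGGCG (YY1), CCGGAAGT (ETS and GABPA) and TGACGTCA (the cAMP response element, CRE).
Pdha1, chrX:160138381-160138680, minus strand: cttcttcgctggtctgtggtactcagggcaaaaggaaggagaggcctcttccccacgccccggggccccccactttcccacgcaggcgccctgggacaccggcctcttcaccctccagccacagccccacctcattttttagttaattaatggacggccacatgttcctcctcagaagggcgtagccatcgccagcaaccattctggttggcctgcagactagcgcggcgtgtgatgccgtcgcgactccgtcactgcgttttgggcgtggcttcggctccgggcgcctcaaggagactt
Mdh2, chr5:135778399-135778698, plus strand: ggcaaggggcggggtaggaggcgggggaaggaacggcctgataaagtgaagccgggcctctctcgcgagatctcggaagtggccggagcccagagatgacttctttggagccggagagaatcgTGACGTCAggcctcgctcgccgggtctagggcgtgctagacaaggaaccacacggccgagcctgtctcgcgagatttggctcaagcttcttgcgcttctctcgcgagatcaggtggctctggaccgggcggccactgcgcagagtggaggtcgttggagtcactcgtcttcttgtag
Cs, chr10:128337477-128337776, plus strand: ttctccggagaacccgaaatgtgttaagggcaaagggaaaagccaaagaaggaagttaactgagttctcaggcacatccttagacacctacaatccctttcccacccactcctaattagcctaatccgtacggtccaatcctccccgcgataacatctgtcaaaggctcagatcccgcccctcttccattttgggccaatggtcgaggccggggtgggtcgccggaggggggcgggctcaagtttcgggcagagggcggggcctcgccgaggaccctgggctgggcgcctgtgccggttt
The RefSeq start of Cs lies upstream of the start in the deposited table, and the window follows RefSeq. The only match in these windows was the CRE in Mdh2, 127 bases before the start. Among the other genes, Ogdh, with several annotated starts, held the CRE 51 bases before the first of them and the NRF1 core before 2 starts further into the gene, while Dlat, Sdha and Fh1 held none of the 5. Of all 32851 promoters in RefSeq, 1.79% held the CRE, 1.872% the NRF1 core, 3.887% the ETS motif, 1.403% the YY1 motif and 0.423% the ERR motif, and GC content was between 58.7% and 62.7% in the windows shown against a median of 52.7%.

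Values are FPKM, fragments scaled by transcript length and by the size of the library, so levels can be compared between genes. All 8 genes passed the filter of at least 1 FPKM in at least 4 libraries in every comparison, and ranged from 9.96 to 111.94 FPKM in islets and from 5.47 to 204.37 FPKM in liver. Tissue markers went with the labels. The summed level of 10 beta cell markers, to which Ins1 and Ins2 gave most, was at least 576919.0 FPKM in every islet library. That of 8 hepatocyte markers was at least 40707.8 FPKM in every liver library. Insulin transcripts (Ins1 and Ins2) took between 53.73% and 75.07% of the FPKM of an islet library, and this share moved with diet and week. It was 56.99% ± 2.38 (SD, n = 4) in CD and 69.62% ± 2.10 (SD, n = 4) in HFD islets at week 12, 62.62% ± 2.13 and 70.83% ± 2.59 at week 16, and 64.29% ± 1.81 and 64.63% ± 1.16 at week 20. Islet results are therefore also given on another scale, set by the summed FPKM of a library with Ins1 and Ins2 left out. Deposited islet values do not add up to a fixed sum (892097 to 1278652 FPKM). This is thus a different scaling from the deposited one, and acinar transcripts stay in its sum. The sum of 11 acinar markers at week 12 ran from 60442.7 to 145192.1 FPKM in CD islets and from 9388.7 to 43875.5 in HFD islets, and at week 16 from 34688.8 to 64445.8 FPKM and from 5687.4 to 18303.3. In 5 liver libraries Ins2 exceeded 100 FPKM, the highest being mouse CD306 at week 12 with 2466.86 FPKM and mouse CD407 at week 16 with 1738.32 FPKM. The number of reads per library is not in the table, and with 2 decimals it could not be recovered from the low values.

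In CD mice the order of levels differed between the tissues. In islets, Mdh2 (88.9 ± 10.5 FPKM, SD, n = 24) and Sdha (85.3 ± 7.82) lay highest, followed by Ogdh (65.3 ± 6.65), Fh1 (44.5 ± 10.7), Pdha1 (31.3 ± 2.70), Cs (27.1 ± 2.39), Idh3a (16.9 ± 1.73) and Dlat (13.02 ± 0.93). Mdh2 and Sdha did not differ beyond their spread. In liver, Sdha (136.7 ± 13.9 FPKM, SD, n = 24), Mdh2 (130.6 ± 19.7) and Fh1 (118.4 ± 17.5) came within 1 SD of their neighbour, Ogdh (44.8 ± 6.21), Cs (40.6 ± 5.25) and Pdha1 (36.8 ± 5.06) formed a middle rank of the same kind, and Idh3a (median 12.4, SD 1.74) and Dlat (9.69 ± 1.36) lay lowest. The E2 core of pyruvate dehydrogenase was thus the lowest of the 8 in both tissues, and fumarase took a different rank in each.

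Within a library the share of each gene in the sum of the 8 does not depend on the scaling of the library. In CD mice Fh1 made up 22.3% ± 2.58 (SD, n = 24) of this sum in liver and 11.9% ± 2.08 in islets. Ogdh made up 8.45% ± 1.06 in liver and 17.5% ± 0.69 in islets, with no overlap between the tissues, since the highest liver library of a CD mouse held 11.04% and the lowest islet library 15.94%. Dlat (1.83% ± 0.27 in liver, 3.51% ± 0.31 in islets) and Idh3a (2.46% ± 0.37 and 4.54% ± 0.38) also took a larger part in islets. Sdha, Mdh2, Cs and Pdha1 differed less, for example 7.65% ± 0.87 against 7.29% ± 0.45 for Cs.

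**Figure D1:**
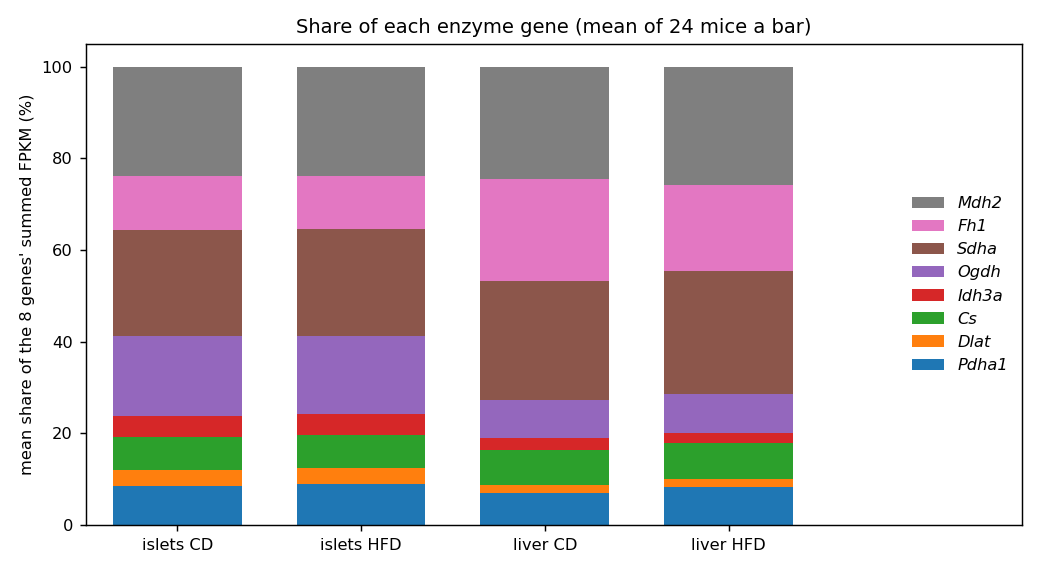
Mean share of each of the 8 genes in their summed FPKM (vertical axis, percent) in islets and liver of CD and HFD mice, 24 mice a bar. Ogdh takes 17.5% in CD islets and 8.45% in CD liver, and Fh1 11.9% and 22.3%.

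On the scale of log2(FPKM + 1), islet minus liver within each CD mouse, all 8 genes differed between the tissues (limma, Benjamini-Hochberg adjusted over all genes). Ogdh was higher in islets by 0.54 ± 0.04 (SE), Dlat by 0.40 ± 0.05 and Idh3a by 0.36 ± 0.04, beside 66.9% of all genes tested that were called higher in islets. Fh1 was lower by 1.41 ± 0.07 (log2 difference -1.41), and Sdha (-0.67), Cs (-0.56), Mdh2 (-0.54) and Pdha1 (-0.22, adjusted p = 4.086e-05) were lower as well, beside 28.5% of all genes tested. The median over all genes tested was 0.66, and the sign of the difference depended on the scale for 6 of the 8. With Ins1 and Ins2 left out, Cs (0.23), Mdh2 (0.26), Pdha1 (0.58) and Sdha (0.13) turned higher in islets, and with median ratio scaling Idh3a (-0.09) turned lower and Dlat stood at -0.04 (adjusted p = 0.379). Fh1 was lower in islets under every scaling, between -1.88 and -0.62, and Ogdh stayed above 0, between 0.07 and 1.35, without passing the test under median ratio scaling (adjusted p = 0.0693).

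The question of diet was asked first in liver, week by week. Of 48 comparisons of a gene at a week, 8 passed the test, all higher in HFD, beside 4.12% of all gene and week comparisons in liver that were called higher. They concerned Pdha1 at weeks 8, 12 and 16, Mdh2 at weeks 8 and 12, Cs at weeks 12 and 16 and Sdha at week 12. At weeks 4, 20 and 24 none of the 8 genes passed, beside 0.0506%, 2.47% and 0.837% of all genes in either direction. At an unadjusted p under 0.05, 16 of the 48 comparisons lay below the threshold, but the share of all genes at that threshold was not computed.

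Pdha1, the subunit through which the complex is switched, showed the widest difference. At week 8 it was at 33.48, 36.05, 36.58 and 43.65 FPKM in CD livers and at 50.87, 60.56, 61.29 and 62.31 FPKM in HFD livers. Every HFD liver was above every CD liver, with a difference of 0.64 ± 0.10 (SE) on the log2 scale (adjusted p = 0.00911), beside 6.17% of genes called higher at this week. At week 12 the CD livers held 31.75, 34.37, 35.26 and 39.36 FPKM and the HFD livers 46.15, 50.39, 56.55 and 58.36 FPKM, again without overlap (0.57 ± 0.10, adjusted p = 0.0144), beside 9.42% of genes called higher. At week 16 they held 40.29, 42.39, 45.49 and 45.76 FPKM against 59.87, 61.71, 61.93 and 65.48 FPKM (0.51 ± 0.08, adjusted p = 0.00615), beside 6.74% of genes called higher, and stood apart as well. The week 16 difference was 0.53 with an adjusted p of 0.0593 without the 2 CD livers over 100 FPKM of Ins2, and the week 12 call was lost without mouse CD307 (adjusted p = 0.0523). At week 24 the groups did not overlap either, from 31.89 to 39.79 FPKM in CD and from 41.24 to 48.89 FPKM in HFD, but the difference of 0.35 ± 0.11 missed the threshold (adjusted p = 0.144). At week 4 (28.05 to 43.31 against 31.55 to 41.33 FPKM) and week 20 (30.29 to 39.70 against 33.72 to 51.64 FPKM) the groups overlapped.

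Mdh2, which regenerates oxaloacetate, rose at weeks 8 and 12. CD livers held 118.45, 127.92, 129.78 and 146.56 FPKM at week 8 and HFD livers 157.66, 167.31, 174.68 and 180.51 FPKM (0.38 ± 0.08, adjusted p = 0.0308). At week 12 they held 118.06, 122.14, 123.99 and 127.15 against 150.83, 169.46, 176.11 and 178.47 FPKM (0.45 ± 0.08, adjusted p = 0.0145). The HFD livers were above all CD livers at both weeks. The week 8 call did not survive the removal of any of 6 of the 8 mice, with an adjusted p of up to 0.0932, and that of week 12 was lost without mouse CD307 (adjusted p = 0.0530). At week 4 Mdh2 stood at 131.00, 153.55, 178.27 and 183.67 FPKM in CD livers, a wider spread than at later weeks, and overlapped with HFD (134.20 to 165.02 FPKM).

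Cs, the entry enzyme of the cycle, rose at weeks 12 and 16. At week 12 CD livers held 34.59, 36.73, 36.92 and 42.09 FPKM and HFD livers 49.55, 51.45, 53.19 and 61.79 FPKM (0.51 ± 0.10, adjusted p = 0.0171). At week 16 they held 33.06, 35.67, 36.89 and 38.87 against 44.23, 45.75, 48.66 and 49.26 FPKM (0.37 ± 0.09, adjusted p = 0.0293). Neither week showed any overlap, while at weeks 4, 8, 20 and 24 the groups overlapped. The week 16 call was lost under median ratio scaling (adjusted p = 0.0825), without the 2 CD livers over 100 FPKM of Ins2 (adjusted p = 0.149) and in 6 of 8 removals of a mouse, with an adjusted p of up to 0.0906. At week 12 it was lost without mouse CD307 or CD308.

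Sdha rose at week 12, from 123.41, 125.22, 129.97 and 139.48 FPKM in CD to 160.53, 170.66, 173.71 and 179.21 FPKM in HFD livers (0.40 ± 0.08, adjusted p = 0.0182). Its groups did not overlap at weeks 8 (0.28 ± 0.09, adjusted p = 0.108) and 16 (0.30 ± 0.09, adjusted p = 0.0671) either, where the test was missed. The week 12 call was lost in 4 of 8 removals of a mouse. Mouse CD307 was the lowest CD liver of week 12 for Pdha1 and Cs and the next to lowest for Sdha and Mdh2, and its removal took the number of liver calls from 8 to 4.

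Dlat, Idh3a, Ogdh and Fh1 passed at no week. Ogdh at week 24 stood at 43.15, 44.35, 46.09 and 46.46 FPKM in CD and at 53.45, 58.14, 64.52 and 76.19 FPKM in HFD livers, with no overlap (0.47 ± 0.12, adjusted p = 0.110). Fh1 at the same week was the only case of HFD livers all below CD livers, from 87.43 to 110.05 against 120.78 to 143.08 FPKM (-0.39 ± 0.12, adjusted p = 0.147). Dlat did not overlap at week 16 (7.44 to 11.38 against 11.48 to 11.96 FPKM, adjusted p = 0.304), and Idh3a overlapped at every week. In all, HFD and CD livers did not overlap with HFD higher in 13 of 48 gene and week pairs, beside 9.75% of pairs over all genes tested, and with HFD lower in 1, beside 2.6%.

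**Figure D2:**
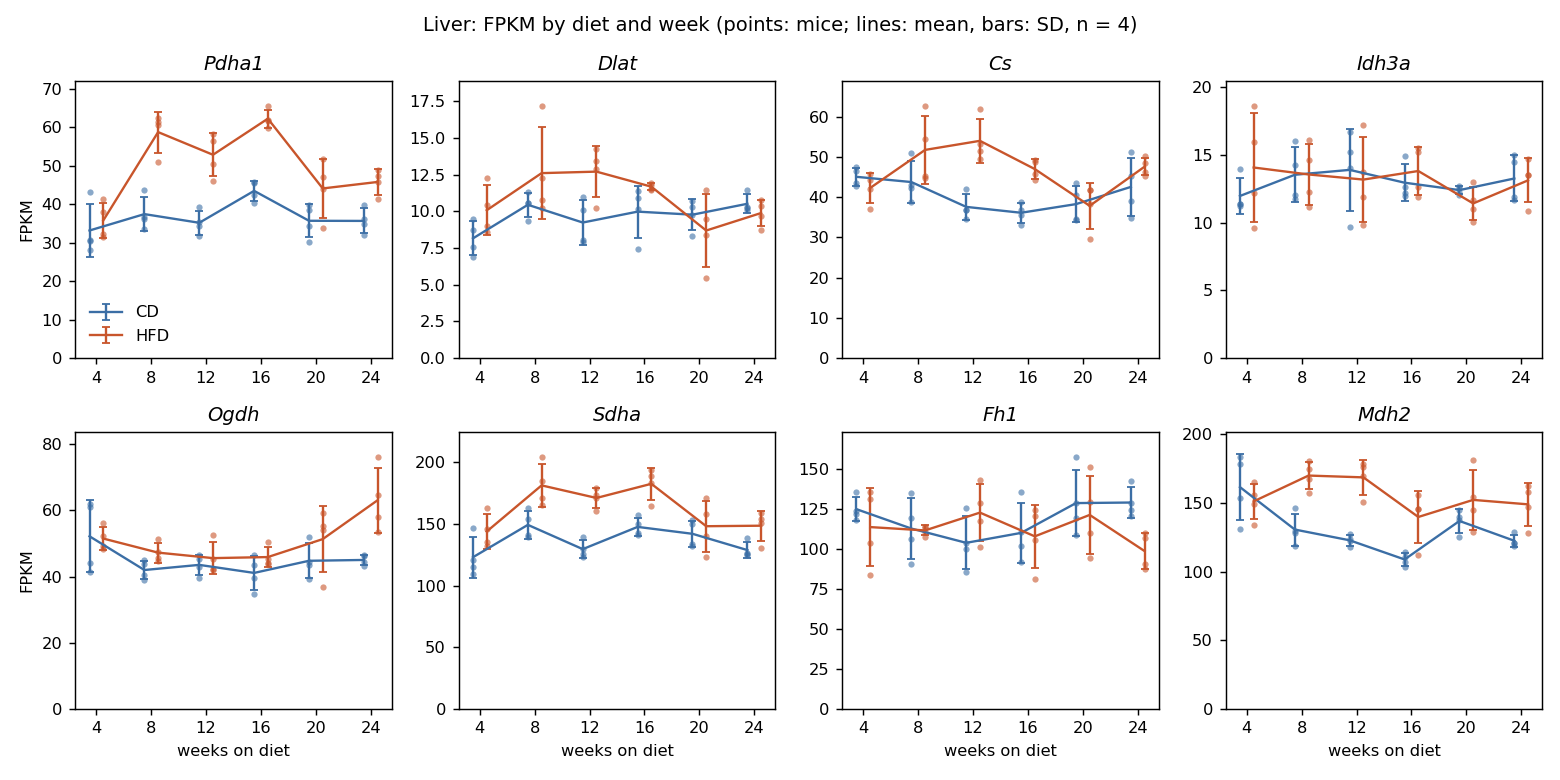
FPKM of the 8 genes in liver (vertical axes, from 0) against weeks on the diet, with 1 point a mouse, lines through the means and bars of 1 SD (n = 4). Pdha1 in HFD livers stays above all CD livers at weeks 8, 12, 16 and 24, while Idh3a overlaps throughout.

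Over the 6 weeks together, 6 of the 8 genes rose in HFD livers, beside 35.8% of all genes tested that were called higher and 6.78% that were called lower. Pdha1 rose by 0.41 ± 0.05 (SE; adjusted p = 6.475e-09), Mdh2 by 0.25 ± 0.04, Sdha by 0.24 ± 0.04, Cs by 0.19 ± 0.05, Ogdh by 0.17 ± 0.05 and Dlat by 0.15 ± 0.06 (adjusted p = 0.0467). Idh3a (0.01 ± 0.06) and Fh1 (-0.07 ± 0.06) did not pass. The median of the 8 genes was 0.18 and that of all genes tested 0.08. Whether a shift common to most genes is part of these values was not tested. With median ratio scaling, Pdha1 (0.33), Mdh2 (0.17), Sdha (0.16) and Cs (0.11) were still called higher, Ogdh (0.09) and Dlat (0.07) were not, and Fh1 was called lower (-0.16, adjusted p = 0.0490). The calls over all genes then split into 2307 higher and 1835 lower, against 3892 and 738 on the deposited scale. Dlat was also lost with a pseudocount of 0.1, with no filter on low FPKM and without week 4 (0.12, adjusted p = 0.142), and in 31 of 48 removals of a mouse. It was kept without the liver libraries high in Ins2 (0.18, adjusted p = 0.0275).

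The shares within the 8 do not depend on the scale of the library. They come from the same values, so their ordering is no separate evidence, and a gain by some genes lowers the share of the rest. Pdha1 made up 6.95% ± 0.97 (SD, n = 24) of the sum in CD and 8.25% ± 1.35 in HFD livers, with a higher HFD mean at 6 of 6 weeks and no overlap at 3 of them. Fh1 made up 22.3% ± 2.58 in CD and 18.8% ± 3.16 in HFD livers, with a lower HFD mean at 6 of 6 weeks. These shares are given as a description, with no test, because they were chosen after the values were seen.

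The diet effect of late weeks (16, 20 and 24) minus that of early weeks (4, 8 and 12) passed the test for none of the 8 genes in liver, beside 0.175% of all genes. At an unadjusted p under 0.05, with no share of all genes computed, 1 of the 8 lay below the threshold. That gene was Dlat (-0.32 ± 0.12, adjusted p = 0.421). The early weeks include week 4, at which the groups overlapped for every gene of the 8.

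In islets, none of the 48 gene and week comparisons passed the test (limma), beside 5.23% of all gene and week comparisons. At an unadjusted p under 0.05, with no share of all genes computed, 7 of the 48 lay below the threshold. The lowest adjusted p was that of Fh1 at week 8, at 0.0663. Fh1 held 47.47, 54.87, 55.40 and 75.77 FPKM in CD and 36.77, 36.96, 45.35 and 45.78 FPKM in HFD islets at that week, with no overlap (-0.48 ± 0.13). At week 4 it held 37.73 to 42.46 FPKM in CD and 33.39, 46.70, 73.69 and 93.00 FPKM in HFD islets, and the range of the HFD islets held all CD islets.

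Pdha1 in islets was at 30.68, 30.86, 31.67 and 31.73 FPKM in CD and at 32.73, 32.89, 33.59 and 33.68 FPKM in HFD mice at week 20 (0.09 ± 0.05, adjusted p = 0.271). At week 24 it was at 27.71, 28.12, 28.45 and 30.73 against 30.95, 31.44, 35.50 and 36.97 FPKM (0.22 ± 0.08, adjusted p = 0.101). Neither week showed any overlap. Ogdh at week 20 lay lower in all HFD islets, from 57.57 to 68.09 against 68.74 to 75.11 FPKM (-0.20 ± 0.07, adjusted p = 0.114). Cs at week 8 lay lower as well (-0.16 ± 0.06, adjusted p = 0.105), and Dlat at week 4 higher (0.08 ± 0.06, adjusted p = 0.770), without overlap in either case. Over all gene and week pairs, HFD islets lay entirely above CD islets in 3 of 48 and entirely below in 3 of 48, beside 5.85% and 7.18% over all genes tested.

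**Figure D3:**
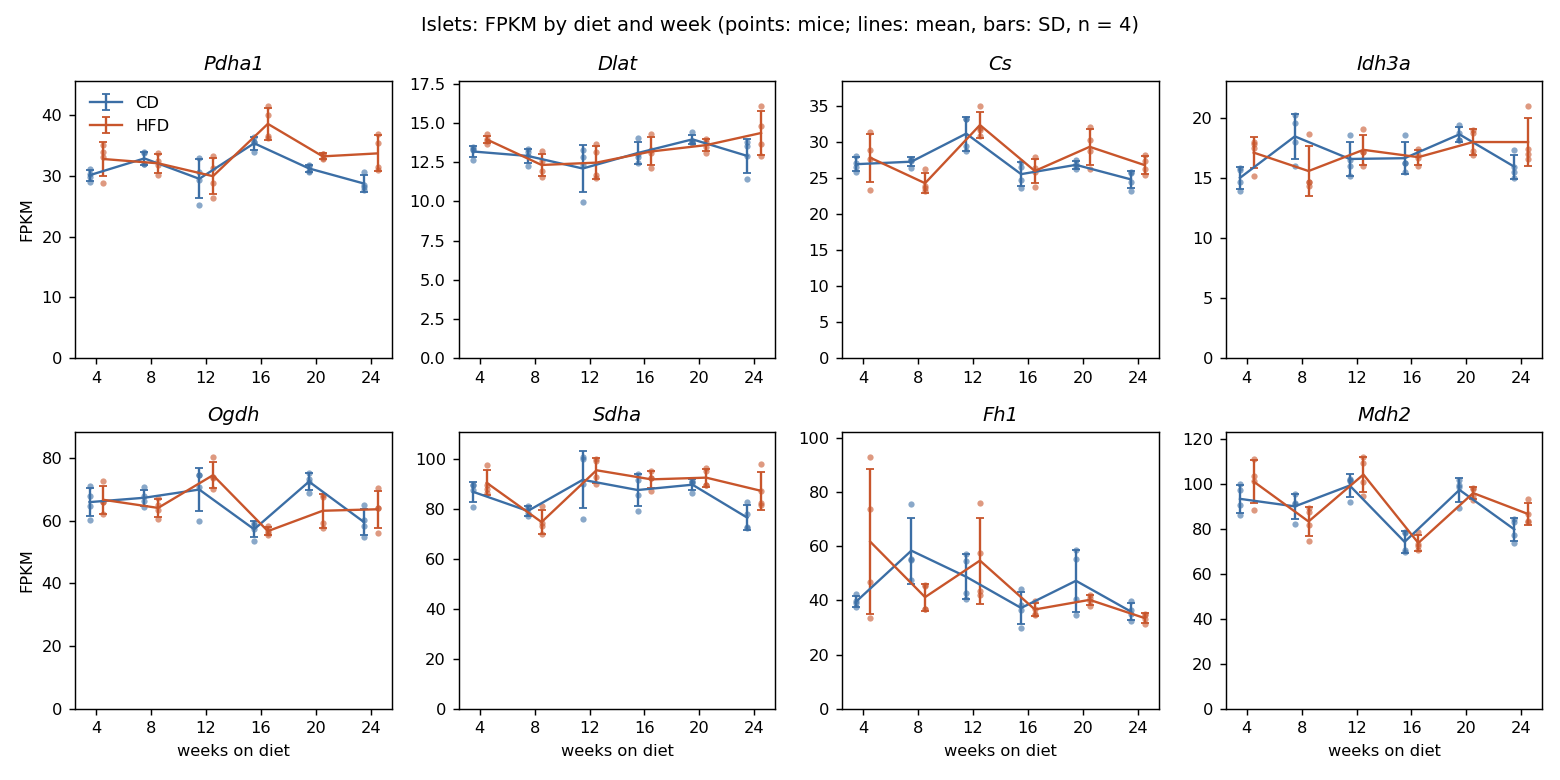
FPKM of the 8 genes in islets (vertical axes, from 0) against weeks on the diet, with 1 point a mouse, lines through the means and bars of 1 SD (n = 4). HFD and CD points overlap in 42 of the 48 pairs of a gene and a week, and Fh1 has wide bars, from 33.39 to 93.00 FPKM among HFD mice at week 4.

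Over the 6 weeks and on the deposited scale, Pdha1 was the only 1 of the 8 called, higher in HFD islets by 0.09 ± 0.03 (SE, adjusted p = 0.00957). This stands beside 16.6% of all genes called higher and 22% called lower. With median ratio scaling 2 of the 8 were called. Sdha reached 0.06 ± 0.03 (adjusted p = 0.0994), and the other 6 lay between -0.02 (Fh1) and 0.03 (Cs). The median was 0.03 over the 8 genes and -0.01 over all genes tested. The Pdha1 call was lost when the acinar score of each library entered the fit (0.06, adjusted p = 0.141).

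The islet counts depended on the scaling. With Ins1 and Ins2 left out of the library sum, 9 of the 48 comparisons passed: Fh1 (0.42), Ogdh (0.38), Mdh2 (0.36) and Sdha (0.35) were higher at week 12, Pdha1 (0.31), Sdha (0.27), Cs (0.22) and Dlat (0.20) were higher at week 16, and Fh1 was lower at week 8 (-0.49). Under the same scale the median of all genes tested was 0.26 at week 12 and 0.19 at week 16, and 2895 of 11289 and 4804 of 11660 genes were called higher. Over the 6 weeks this scale called 6 of the 8 genes higher, from 0.10 (Idh3a) to 0.17 (Pdha1), with a median over all genes of 0.06 and 4437 genes called higher against 1273 lower. Fewer cells of a type and less RNA per cell cannot be told apart in such bulk samples. Whether the rise of insulin transcripts or a change in the other transcripts moved these values was not tested.

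The late minus early difference in the diet effect passed for none of the 8 in islets, beside 3.16% of all genes, and none had an unadjusted p under 0.05. Its values ran from -0.16 (Fh1) to 0.11 (Pdha1 and Cs).

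**Figure D4:**
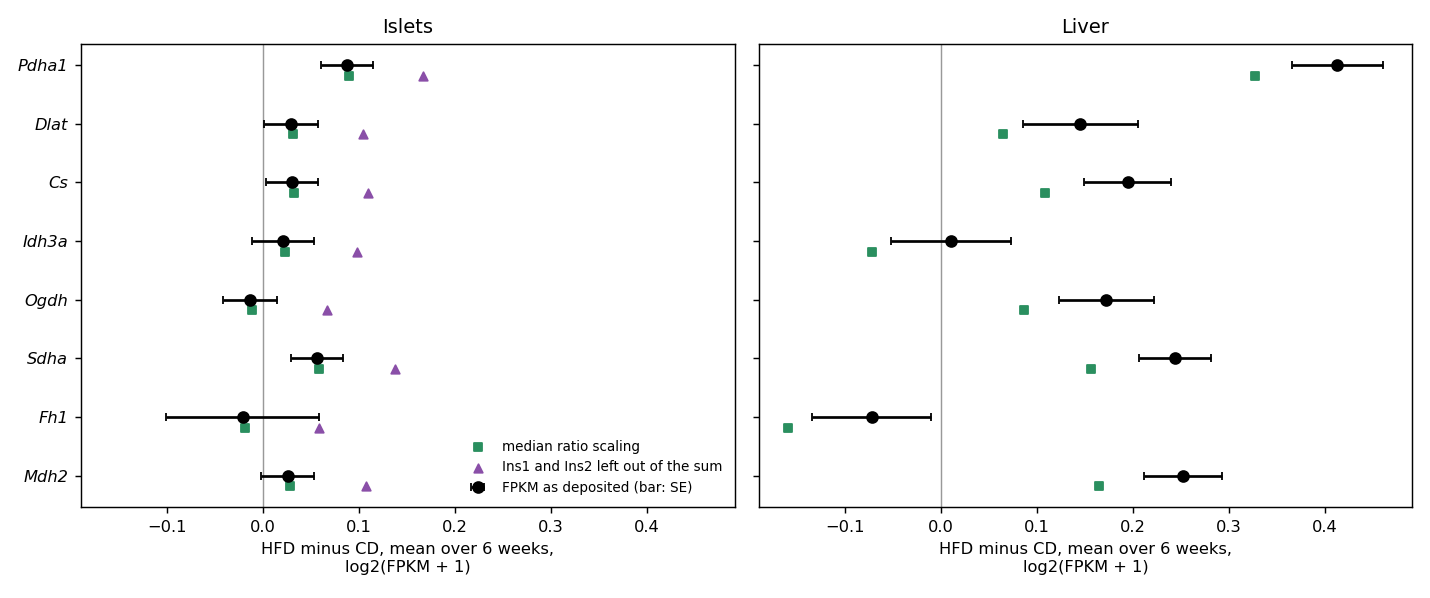
Difference of HFD minus CD over 6 weeks on the log2(FPKM + 1) scale (horizontal axis) for the 8 genes in islets and liver, with black points for FPKM as deposited (bars, SE) and coloured marks for other scalings. Liver Pdha1 stands at 0.41 and at 0.33 after median ratio scaling, and islet Pdha1 at 0.09 and, without Ins1 and Ins2, at 0.17.

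The difference between the tissues in the diet effect was tested within mice, as the islet minus liver difference of HFD minus that of CD. It passed the test below 0 for 5 of the 8 genes, beside 36.1% of all genes called lower and 8.54% called higher. Pdha1 differed by -0.33 ± 0.06 (SE, adjusted p = 1.478e-05), Mdh2 by -0.23 ± 0.05, Sdha and Ogdh by -0.19 ± 0.05 and Cs by -0.16 ± 0.06. Dlat (-0.12 ± 0.07), Idh3a (0.01 ± 0.06) and Fh1 (0.05 ± 0.09) did not pass. For Pdha1 and Mdh2 the call held under each scaling, at -0.25 and -0.15 with median ratio scaling and at -0.28 and -0.18 with Ins1 and Ins2 left out. Sdha was lost with Ins1 and Ins2 left out, and Cs and Ogdh were lost under both scalings.

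Along the time course of CD mice alone, 7 of the 8 genes differed among weeks in islets (F test, limma), beside 77.5% of all genes, and 2 of 8 in liver, beside 55%. Islet Mdh2 (adjusted p = 1.279e-06) had means of 93.3, 89.9, 99.2, 74.2, 97.3 and 79.7 FPKM at weeks 4 to 24, and islet Ogdh (adjusted p = 0.000132) of 65.9, 67.3, 69.9, 57.2, 72.4 and 59.5 FPKM. Both were low at weeks 16 and 24, and the HFD islets of week 16 were low too, with 73.7 FPKM of Mdh2 and 56.6 FPKM of Ogdh. The HFD islets of week 24 were not low in the same way. They held 86.55 FPKM of Mdh2, against 83.2 at week 8, and 63.6 FPKM of Ogdh, against 63.1 at week 20. Dlat was the islet gene that did not differ (12.1 to 14.0 FPKM, adjusted p = 0.163). In liver the Mdh2 means ran from 161.6 FPKM at week 4 to 108.9 FPKM at week 16 (adjusted p = 0.000763) and the Sdha means from 123.0 at week 4 to 149.2 FPKM at week 8 (adjusted p = 0.0302). The age of the mice and the handling of a time point cannot be told apart here.

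Spread within groups was smaller in islets than in liver. The median coefficient of variation over the 12 groups was between 4.74% (Pdha1) and 7.49% (Idh3a) for 7 of the 8 genes in islets and 13.9% for Fh1, and between 7.57% (Sdha) and 16.1% (Fh1) in liver.

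Genes whose deviations from the group means ran most like the mean of the 8 were ranked by Pearson's r over 48 libraries of a tissue, as a description. In islets these were Prpf19 (r = 0.857), Prkar1a (0.849), Mybbp1a (0.842), Usp5 (0.839) and Nsun2 (0.836), where the median r over the 12370 genes ranked was 0.322. In liver they were Cul4a (0.816), Gbe1 (0.798), Uqcrc2 (0.795), Slc2a2 (0.786) and Tmem135 (0.768), with a median of 0.213. Uqcrc2 is a subunit of respiratory complex III, Gbe1 the glycogen branching enzyme and Slc2a2 the glucose transporter of hepatocytes. Against the mean of the other 7, liver Fh1 had an r of -0.009 and liver Pdha1 of 0.763, while the 8 islet genes ran from 0.488 (Fh1) to 0.752 (Idh3a). All libraries of a tissue share the FPKM scale, which can move genes together, and its part in these r values was not tested.

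Other genes of the pathway were taken from a list of 49, of which 46 passed the filter in islets and 42 in liver over the 6 weeks. In islets 12 rose and 4 fell, and in liver 17 rose and 2 fell, beside the shares of all genes given above. Median ratio scaling, tried on these genes after seeing the data, gave 13 and 4 in islets, beside 19.9% and 26.1% of all genes, and 12 and 4 in liver, beside 21.3% and 16.9%. Leaving Ins1 and Ins2 out gave 25 and 2 in islets, beside 35.9% and 10.3%, and the acinar score in the fit gave 8 and 5, beside 9.61% and 20.9%. The 3 other subunits of the pyruvate dehydrogenase complex did not pass in islets (Pdhb 0.05, Dld -0.03, Pdhx 0.00), and in liver Dld (0.27 ± 0.07), the shared E3 subunit, and Pdhb (0.18 ± 0.06), the E1 beta partner of Pdha1, rose while Pdhx (0.10 ± 0.04, adjusted p = 0.0643) did not pass. Pdhb was lost with median ratio scaling (0.09, adjusted p = 0.215).

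Of the regulators of the complex, Pdk4 had the largest change in both tissues. Pdk4, the kinase induced in fasting, was at 5.32, 6.75, 7.82 and 9.37 FPKM in CD and at 1.00, 1.16, 1.38 and 1.51 FPKM in HFD islets at week 16. It fell at weeks 12 (-1.51 ± 0.19), 16 (-1.86 ± 0.13), 20 (adjusted p = 0.00342) and 24 (-1.58 ± 0.23), and over the 6 weeks it changed by -1.15 ± 0.10. HFD islets lay below all CD islets at 5 of 6 weeks, week 8 being the exception, where they held 2.26, 2.56, 3.76 and 9.21 against 3.89 to 5.52 FPKM. The diet effect on Pdk4 was lower in late than in early weeks (-0.86 ± 0.20, adjusted p = 0.00711). In liver Pdk4 ran from 0.27 to 18.37 FPKM in CD and from 0.17 to 94.25 FPKM in HFD mice, a rise over the 6 weeks of 1.43 ± 0.41 (adjusted p = 0.0045) with overlap at 5 of 6 weeks. The diet effect of Pdk4 differed between the tissues (-2.58 ± 0.45). Alpha and delta cell markers also moved with diet in islets, from a median sum of 12637.0 FPKM in CD to 5008.9 in HFD for alpha and from 3647.4 to 1469.1 for delta, and their part in the islet values was not tested. Pdk3 rose in islets (0.14 ± 0.03) and was under 0.5 FPKM in liver, where it was not tested, and Pdk1 (-0.03 in islets, -0.06 in liver) and Pdk2 (0.08 and 0.17) did not pass. Of the phosphatases, Pdpr, the regulatory subunit, fell in islets (-0.13 ± 0.04), while Pdp1 (0.03) and Pdp2 (-0.08) did not pass there and Pdp2 (0.05) and Pdpr (0.03) did not pass in liver.

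Next came genes that bring pyruvate and 4-carbon acids into the cycle. In liver Mpc1 (0.52 ± 0.06), a subunit of the mitochondrial pyruvate carrier, and Pcx (0.43 ± 0.06), pyruvate carboxylase, rose, whereas in islets Pcx fell (-0.20 ± 0.03) and Mpc1 (-0.02) did not pass. The diet effect of both genes differed between the tissues (-0.54 ± 0.07 for Mpc1 and -0.63 ± 0.07 for Pcx). Mpc2, the partner of Mpc1, rose in islets (0.06 ± 0.02, adjusted p = 0.0295) and not in liver (-0.03 ± 0.05), but the difference between the tissues did not pass (0.09 ± 0.06, adjusted p = 0.205). With median ratio scaling Mpc2 was called lower in liver (-0.11, adjusted p = 0.0334) and the difference between the tissues passed (0.17, adjusted p = 0.00867). Me3, a mitochondrial malic enzyme that makes pyruvate from malate, rose in islets by 0.90 ± 0.07, with 1.17 to 2.89 FPKM in 24 CD and 2.59 to 6.57 FPKM in 24 HFD mice, and all HFD islets lay above all CD islets at each of the 6 weeks. In liver Me3 did not exceed 0.21 FPKM. Mdh1, the cytosolic malate dehydrogenase, rose in islets by 0.17 ± 0.03, and Got1, the cytosolic aspartate transaminase, by 0.16 ± 0.03, while Glud1, glutamate dehydrogenase, fell (-0.14 ± 0.03). Got1 fell in liver (-0.46 ± 0.11), as did Pck1 (-0.72 ± 0.13), the gluconeogenic carboxykinase, and Got2 rose (0.26 ± 0.04). Among the islet calls named here, Glud1 (-0.06, adjusted p = 0.180) and Pdpr (-0.07, adjusted p = 0.267) were lost with Ins1 and Ins2 left out, and Pcx stood at -0.12 (adjusted p = 0.0160). With the acinar score in the fit, Mpc2 (0.05, adjusted p = 0.130) and the complex II subunit Sdhd (0.08, adjusted p = 0.0872) were lost, while Pdk4 (-1.12), Me3 (0.88), Pcx (-0.21), Got1 (0.16), Mdh1 (0.15) and Pdk3 (0.10) were still called.

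Of the other 13 citrate cycle enzymes, 8 of the 12 tested in liver rose, led by Idh2 (0.41 ± 0.07), the NADP-dependent isocitrate dehydrogenase, and Suclg2 (0.38 ± 0.04), Idh3g (0.25 ± 0.04) and Suclg1 (0.24 ± 0.04). The share of all genes called higher in liver was 35.8%. In islets, where it was 16.6%, 5 of 13 rose by at most 0.12 (Idh3b, 0.12 ± 0.03, and Sdhd, 0.12 ± 0.03). No gene of this group fell in either tissue, beside 22% of all genes in islets and 6.78% in liver. The count was 5 of 12 in liver and 5 of 13 in islets with median ratio scaling, and 9 of 13 in islets with Ins1 and Ins2 left out and 3 of 13 with the acinar score in the fit. At single weeks liver Suclg2 was called at weeks 8, 12 and 16 (0.65, 0.64 and 0.49).

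**Figure D5:**
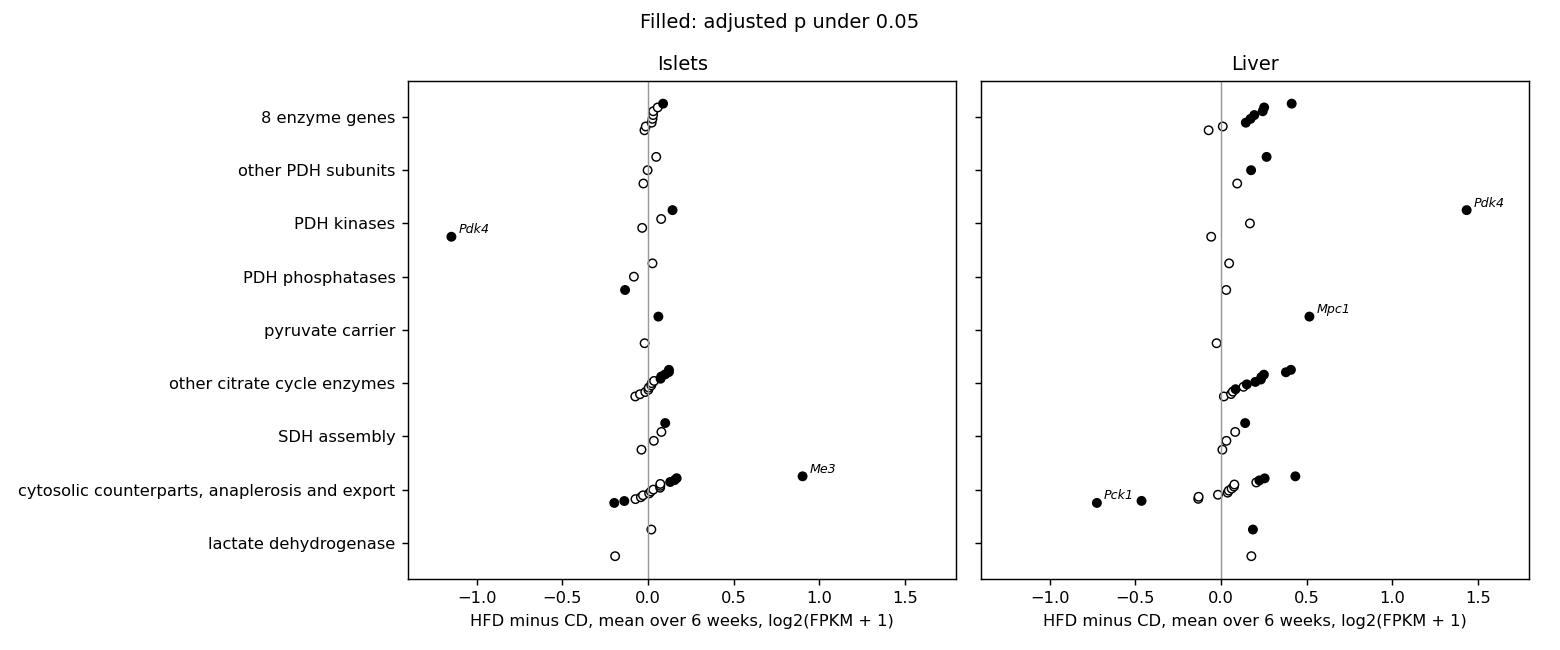
Difference of HFD minus CD over 6 weeks on the log2(FPKM + 1) scale (horizontal axis) for each tested gene, by role, in islets and liver, with filled points for an adjusted p under 0.05. Pdk4 lies at -1.15 in islets and 1.43 in liver, and Me3 at 0.90 in islets.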

How the data were processed

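RNA sequencing of islets and liver from 48 mice gave 96 libraries, and groups follow the diet, tissue and week labels. The authors' processing notes name HISAT2 2.0.4, Bowtie2 2.2.5, RSEM 1.1.12, DESeq2 and GRCm38.p5, without their order, and the role of each is not given in the sources used here. The authors deposited FPKM values rounded to 2 decimals, without read counts, so the depth is unknown and no counting error could be computed. The table also holds the authors' group means, their fold changes, p-values and q-values by DEGseq, and their module and cluster assignments, none of which was used. FPKM divides by the library's total, so a rise of an abundant transcript lowers all others, and strand and multi-mapping choices are not stated.

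Values were tested as log2(FPKM + 1), where the pseudocount understates changes of low genes, in R 4.3.3 by limma 3.58.1 (trend and robust options on), two-sided, with Benjamini-Hochberg adjustment over all genes that reached 1 FPKM in 4 or more libraries and a threshold of 0.05. Weekly comparisons used 8 libraries. The 6-week mean, the late minus early contrast and the F test among CD weeks used 1 fit of 48 libraries per tissue. Tissues were compared on islet minus liver differences within a mouse, since both libraries carry 1 mouse number. The fits were tested on simulated data. Median ratio scaling divides each library by its median ratio to a mean library. Alternatives are listed in the closing section. The 13 marker lists (beta, alpha, delta, acinar, ductal, endothelial, stromal, macrophage, B cell, T cell, adipocyte, blood, hepatocyte) were summed as FPKM. Named were the 8 genes, the other subunits, kinases and phosphatases of the complex, up to 8 further pathway genes per tissue with the largest called 6-week effect, and the 5 most alike genes. Mpc2, Got2, Idh3g, Suclg1, Idh3b and Sdhd were named after their values were seen. The genes and lists were chosen with earlier results of these data known. Python 3.11.15 with numpy 2.4.6 and pandas 2.3.3 served for summaries.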

Additional observations from a re-analysis of the deposited data

Results flagged for a closer look

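In 6 of 192 groups of 4 mice, 1 mouse lay far from the other 3 by Dixon's ratio, where chance gives about 1 in 20 groups, or 9.6. In liver these were Pdha1 in mouse HFD217 at week 8 (50.87 FPKM, the others 60.56 to 62.31), Dlat in mouse CD606 at week 24 (11.46, the others 10.07 to 10.29), Idh3a in mouse CD106 at week 4 (13.94, the others 11.20 to 11.39) and Sdha in mouse CD605 at week 24 (138.62, the others 124.55 to 126.49). In islets they were Idh3a in mouse HFD217 at week 8 (18.62 FPKM, the others 14.31 to 14.67) and Mdh2 in mouse CD304 at week 12 (91.68, the others 101.20 to 102.30).

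The diet effect differed between islets and liver, by the within-mouse test of that difference, for 5 of the 8 genes: Pdha1 (-0.3251, log2), Mdh2 (-0.2262), Sdha (-0.1874), Ogdh (-0.186) and Cs (-0.1645). Over all genes tested, 36.1% were called lower and 8.54% higher.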

How the results depend on the processing

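Alternatives were a pseudocount of 0.1, no filter on low FPKM, median ratio scaling, Ins1 and Ins2 left out of the sum, all 12 groups in 1 fit and the removal of each mouse. Added after seeing the data were the removal of the 5 liver libraries over 100 FPKM of Ins2, the removal of week 4 and the acinar score as a covariate. All alternatives for the other pathway genes were added after seeing the data. The number of the 8 genes called over the 6 weeks in islets was 1 and became 2 with median ratio scaling, 6 with insulin left out and 0 with the acinar score. The weekly islet count of 0 of 48, beside 5.23% of all gene and week comparisons, became 9 with insulin left out and 1 in the fit of all 12 groups. With insulin left out, calls over all genes rose as well, as given above for weeks 12 and 16, against 246 and 386 genes called higher on the deposited scale. The share of all genes in the islet fit of all 12 groups is not given here. The weekly liver count of 8, beside 4.12% of all gene and week comparisons called higher, became 12 in that fit. It was 7 with median ratio scaling and 6 without the libraries high in Ins2. The shares of all genes in those other liver fits are not given here. The count of genes whose diet effect differed between tissues was 5, beside 36.1% of all genes called lower. It became 3 with median ratio scaling, beside 27.9%, and 2 with insulin left out, beside 25.4%. In CD mice, islet minus liver reversed with insulin left out for Cs (0.2295), Mdh2 (0.2569), Pdha1 (0.5756) and Sdha (0.1284), and with median ratio scaling for Idh3a (-0.0889). Dlat stood at -0.0352 with median ratio scaling and was no longer called (limma, adjusted p = 0.379). Beyond the scaling itself, the cause was not tested.

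When each mouse was left out in turn, the weekly counts ran from 0 to 3 in islets and from 4 to 10 in liver, the lowest without mouse CD307 of week 12. The 6-week counts ran from 1 to 1 in islets and from 5 to 6 in liver, the late minus early counts from 0 to 0 in both, the tissue difference in diet effect from 5 to 5, the tissue comparison in CD mice from 8 to 8, and the counts among CD weeks from 6 to 7 in islets and from 1 to 4 in liver. The tissue comparisons were paired by mouse, and without this replicate block 8 and 5 genes were called, as with it. Among the single-gene values, 588 of 680 under the other alternatives and 2819 of 2880 with a mouse left out were unchanged. Unchanged means called in the same direction in both fits at any size, or called in neither and moved by at most 1 SE. Depth is unknown, so the precision of low values could not be given.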

Other observations

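Marker sums of other cell types, in FPKM, give the range over 24 CD and 24 HFD mice. In islets, alpha cell markers ran from 7232.3 to 16056.2 in CD and from 1219.8 to 15247.1 in HFD (medians 12637.0 and 5008.9), and delta cell markers from 2177.0 to 4843.5 and from 330.3 to 3995.9 (medians 3647.4 and 1469.1). Acinar markers ran from 5985.6 to 145192.1 and from 3955.2 to 49550.7, ductal from 129.8 to 192.7 and from 118.3 to 211.7, and blood from 59.6 to 256.7 and from 67.7 to 743.2. Endothelial markers reached at most 160.4 and 174.4, stromal 56.1 and 56.7, macrophage 78.9 and 112.8, B cell 35.8 and 20.2, T cell 2.9 and 2.0, adipocyte 0.5 and 1.5, and hepatocyte 49.2 and 238.4.

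In liver, macrophage markers ran from 49.1 to 161.4 in CD and from 58.5 to 244.6 in HFD, stromal markers from 28.1 to 89.3 and from 49.4 to 164.6, and adipocyte markers from 0.2 to 10.4 and from 0.6 to 67.6, with Lep at 0 in every library. Blood markers ran from 156.2 to 2624.9 and from 57.2 to 3979.3. Beta cell markers reached 3774.9 in CD and 505.7 in HFD, acinar 272.5 and 175.7, ductal 57.9 and 229.1, endothelial 46.7 and 61.9, B cell 2.5 and 2.9, and T cell 1.5 and 1.6. The alpha and delta lists hold Ttr and Rbp4, which hepatocytes express, and reached 7105.4 and 4640.3 in liver. The part of these sums in the results on the 8 genes was not tested, apart from the acinar score in islets.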
